A study of Homo sapiens with 8 samples.

Results

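RNA of the epidermal growth factor (EGF) receptor family was followed in keratinocytes that carried different forms of CARD14. The set was chosen by gene symbol and holds 9 of the 28518 rows of the count table. The 6 ligands are AREG (amphiregulin), EREG (epiregulin), HBEGF (heparin-binding EGF-like growth factor), TGFA (transforming growth factor alpha), EPGN (epigen) and BTC (betacellulin). The 3 receptors are EGFR, ERBB2 and ERBB3. All 9 passed the filter on low counts.

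The cells were HaCaT, human keratinocytes that grow indefinitely. Their own CARD14 was knocked out in every group, WT included. CARD14 is an epithelial scaffold protein that signals to NF-kB, and the series asked which pathways differ between cells given hypomorphic variants and cells given wild-type (WT) CARD14. Dishes of 10 cm received 9 ug of a plasmid that encodes CARD14 joined through a T2A peptide to eGFP, with the variant R820W, N737H or I593T, or WT CARD14. GFP-positive cells were sorted after 24 h, and each of the 4 constructs had 2 libraries, lettered A and B. According to the series text there was a pair of independent experiments. Each letter is taken here as 1 experiment, although the labels do not say so in words. No library without plasmid was analysed here, and the labels do not say whether the knockout line is a single clone.

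EGF family ligands are made as membrane-anchored precursors, and proteases of the ADAM group cut many of them free. A bound ligand makes EGFR pair with itself or with ERBB2, which has no known ligand of its own, or with ERBB3, whose kinase is weak and whose ligands are the neuregulins. In epidermis EGFR signalling keeps basal keratinocytes proliferating and migrating, and the ligands AREG, HBEGF and TGFA are themselves induced by receptor activity.

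Total counts ran from 17892608 to 24629860 per library, and 14834 genes were tested. CARD14 RNA, in CPM (counts scaled to normalised library size), was 1190 and 1410 with R820W (A and B), 444 and 1005 with N737H, 500 and 1394 with I593T, and 1127 and 978 with WT. All 10 keratinocyte markers examined were above 1 CPM, and the simple-epithelium keratins KRT8 and KRT18 were also present, at means of 1800 and 2940 CPM. Of the fibroblast, immune, melanocyte and endothelial markers, only CD74, PMEL, MLANA and MITF had a mean above 1 CPM. VIM had a mean of 0.237 CPM and PTPRC 0.0653 CPM. RNA was measured in bulk, so that fewer cells expressing a gene and less RNA per cell cannot be told apart.

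The genes EPGN, EREG, AREG and BTC are neighbours in that order on chromosome 4. The windows around the starts of AREG and EREG are shown because the ratio of these neighbours was alike in 7 of the 8 libraries and not in the other. They run from 250 bases before the RefSeq start to 50 after it, on the plus strand of GRCh38.p14, at chr4:74444886-74445185 for AREG and chr4:74364895-74365194 for EREG. Capitals mark TGACG on either strand, the core of the cAMP response element.
AREG: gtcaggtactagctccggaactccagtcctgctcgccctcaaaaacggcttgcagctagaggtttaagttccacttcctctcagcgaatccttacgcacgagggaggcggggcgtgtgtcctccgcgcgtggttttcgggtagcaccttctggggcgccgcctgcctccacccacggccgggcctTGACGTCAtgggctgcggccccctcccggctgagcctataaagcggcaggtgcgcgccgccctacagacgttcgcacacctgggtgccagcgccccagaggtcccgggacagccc
EREG: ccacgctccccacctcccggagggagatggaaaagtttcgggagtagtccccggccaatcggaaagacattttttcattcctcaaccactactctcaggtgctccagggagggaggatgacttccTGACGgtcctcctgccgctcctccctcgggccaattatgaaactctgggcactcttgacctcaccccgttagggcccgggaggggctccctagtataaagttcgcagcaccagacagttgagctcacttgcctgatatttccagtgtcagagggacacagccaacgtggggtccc
In AREG a pair of cores on opposite strands overlap and form the full element TGACGTCA, with its first base at position -65 counted from the start. EREG has 1 core, at -125. Of 35116 RefSeq windows of the same length, 1.85% hold TGACGTCA and 24.6% hold TGACG. Neither window holds TGANTCA (AP-1, in 7.71% of windows), the NF-kB form GGGA and TTCC with 2 bases between (1.61%) or CACGTG (E-box, 7.26%), each searched on both strands. GGGCGG (SP1, in 45% of windows) was found on the minus strand at -9 in AREG and not in EREG. These matches describe letters in the windows and were not tied to binding.

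Expression was led by 4 ligands and EGFR. Scaled to length (CPM per kilobase of merged exons in GENCODE 29, an annotation that may differ from the one used for counting), AREG had a mean of 39.3, HBEGF 33.7 and TGFA 28.1 over the 8 libraries. EREG stood at 5.12 and EGFR at 5.03, followed by EPGN (1.39), ERBB3 (1.30), ERBB2 (0.842) and BTC (0.410). The ranges of AREG (27.4 to 71.1), HBEGF (20.2 to 66.7) and TGFA (20.2 to 44.8) overlapped, as did those of EREG (3.41 to 9.35) and EGFR (3.67 to 7.05). AREG has a near-identical copy, AREGB, in older annotation. The table has no row of that name, and how its reads were counted is not given in the sources used here.

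HBEGF, a ligand best known for driving keratinocyte migration in wounds, varied most, with a 3.31-fold span between its lowest and highest library. It was at 129 and 91.3 CPM with R820W (A and B), 68.9 and 60.9 with N737H, 102 and 81.0 with I593T, and 201 and 80.2 with WT. Both N737H libraries were below both WT libraries, while the R820W and I593T libraries overlapped those of WT. The log2 fold change of N737H against WT was -1.12 ± 0.39 (SE, n = 2 per group), with a 95% interval of -2.02 to -0.22. It did not pass (edgeR unadjusted p = 0.0208, adjusted p = 1.00 over the 14834 genes). Within A the difference was -1.55 and within B -0.40, and without WT library A the fitted value was -0.25. For R820W the value was -0.36 ± 0.38 and for I593T -0.62 ± 0.39 (edgeR adjusted p = 1.00 for each). For R820W and I593T the differences were -0.64 and -0.98 within A, and 0.19 and 0.01 within B. Without WT library A their fitted values were 0.50 and 0.24.

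AREG, a ligand that binds EGFR and no other receptor of the family, was at 74.5 and 49.8 CPM with R820W, 47.3 and 45.1 with N737H, 67.5 and 68.0 with I593T, and 117 and 49.0 with WT. N737H again lay below both WT libraries, although its B library was only slightly under the WT one. Its log2 fold change was -0.85 ± 0.37 (95% interval -1.70 to 0.01, edgeR adjusted p = 1.00), with -1.31 within A and -0.12 within B. Without WT library A it was -0.03. For R820W the log2 fold change was -0.42 ± 0.37, with -0.65 within A and 0.02 within B. For I593T it was -0.29 ± 0.37, with -0.79 within A and 0.47 within B.

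EREG, a ligand of EGFR and ERBB4, was at 34.8 and 26.4 CPM with R820W, 25.1 and 20.1 with N737H, 33.5 and 19.5 with I593T, and 53.5 and 21.2 with WT. Every variant overlapped WT. The log2 fold changes were -0.29 ± 0.43, -0.73 ± 0.43 and -0.49 ± 0.43 for R820W, N737H and I593T (edgeR adjusted p = 1.00 for each). The ratio of AREG to EREG CPM lay between 1.88 and 2.305 in 7 libraries. In I593T library B it was 3.49, where AREG was as high as in I593T library A and EREG was the lowest of the 8.

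TGFA, an autocrine ligand of keratinocytes, was at 169 and 106 CPM with R820W, 132 and 106 with N737H, 156 and 126 with I593T, and 222 and 100 with WT. Within A every variant was below WT, and within B every variant was above it. With R820W the log2 fold change was -0.23 ± 0.37, with N737H -0.44 ± 0.37 and with I593T -0.20 ± 0.37 (adjusted p = 1.00 in edgeR). The sign turned for all 3 without WT library A, to 0.50, 0.30 and 0.54.

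**Figure D1:**
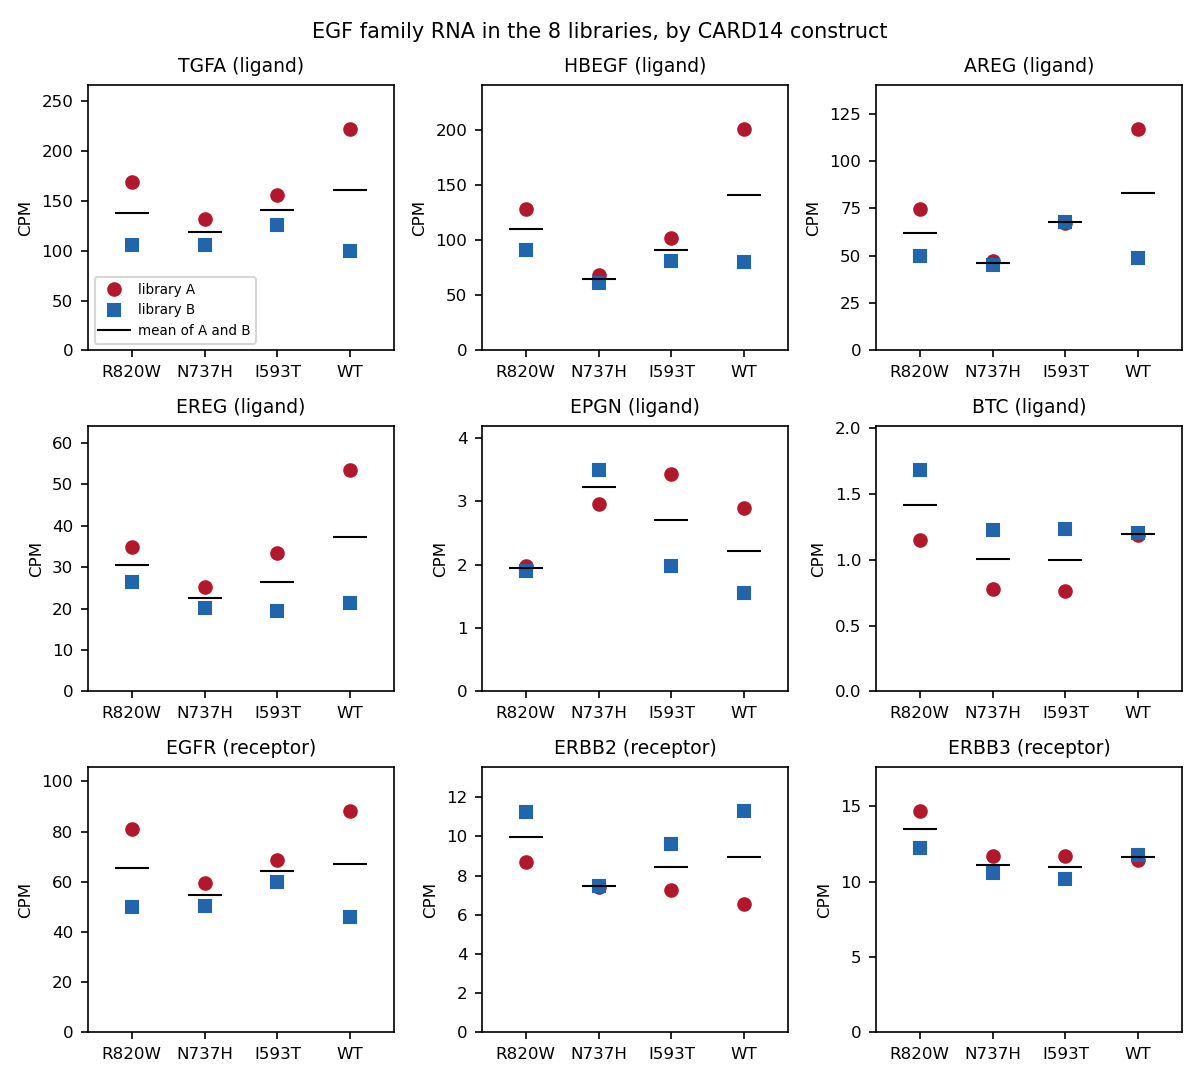
CPM of each family member (y axes, linear, from 0) by CARD14 construct (x axes), with 1 point per library (A circles, B squares) and a bar at the mean of the pair. WT library A is the highest of the 8 for TGFA, HBEGF, AREG, EREG and EGFR, while ERBB2 is lowest there at 6.55 CPM.

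EPGN, a low-affinity EGFR ligand, went the other way from the abundant ligands with N737H. It was at 1.98 and 1.90 CPM with R820W, 2.96 and 3.49 with N737H, 3.42 and 1.98 with I593T, and 2.88 and 1.55 with WT. The N737H libraries were above both WT libraries, although library A exceeded WT library A by little. The log2 fold change was 0.54 ± 0.43 with N737H (95% interval -0.45 to 1.53), against -0.19 ± 0.43 with R820W and 0.29 ± 0.43 with I593T (edgeR adjusted p = 1.00 for each). These values rest on 32 to 85 counts per library, and the exact Poisson 95% intervals, which cover counting error only, were 2.26 to 3.799 CPM for N737H library A and 2.22 to 3.69 for WT library A.

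BTC, a ligand of EGFR and ERBB4, was the least expressed member, with 16 to 31 counts per library. It was at 1.154 and 1.68 CPM with R820W, 0.776 and 1.23 with N737H, 0.765 and 1.24 with I593T, and 1.19 and 1.21 with WT. Counts this low gave wide exact Poisson 95% intervals, of 0.461 to 1.195 CPM in the lowest library (I593T A) and 1.14 to 2.39 CPM in the highest (R820W B). Its log2 fold changes against WT ran from -0.27 to 0.24, with SEs of 0.49.

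EGFR was at 80.9 and 49.9 CPM with R820W, 59.5 and 50.3 with N737H, 68.8 and 60.1 with I593T, and 88.2 and 46.0 with WT. Each variant overlapped WT, and within B all 3 variants were above it. With R820W the log2 fold change was -0.04 ± 0.33, with N737H -0.29 ± 0.33 and with I593T -0.06 ± 0.33 (adjusted p = 1.00 in edgeR). Without WT library A they were 0.55, 0.31 and 0.54. Its antisense gene EGFR-AS1 was at 0.338 to 1.74 CPM. Use of strand in the counting is not given, so reads of the antisense partners cannot be told apart.

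ERBB2, the shared partner of the other receptors, was at 8.70 and 11.3 CPM with R820W, 7.42 and 7.48 with N737H, 7.25 and 9.60 with I593T, and 6.55 and 11.3 with WT. WT A was its lowest library and WT B its highest, the opposite of EGFR. The ratio of ERBB2 to EGFR CPM was 0.108 and 0.225 with R820W, 0.125 and 0.149 with N737H, 0.105 and 0.160 with I593T, and 0.0742 and 0.246 with WT. The log2 fold changes of ERBB2 were 0.16 ± 0.31, -0.26 ± 0.31 and -0.08 ± 0.31 for R820W, N737H and I593T.

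ERBB3 was the steadiest member, with a 1.44-fold span over the 8 libraries. It was at 14.7 and 12.2 CPM with R820W, 11.7 and 10.6 with N737H, 11.7 and 10.2 with I593T, and 11.4 and 11.8 with WT. R820W lay above both WT libraries, with a log2 fold change of 0.21 ± 0.21 (95% interval -0.26 to 0.69, edgeR adjusted p = 1.00), and 0.08 without R820W library A. N737H and I593T were at -0.06 ± 0.21 and -0.08 ± 0.21.

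Against WT, no member passed with any variant, nor for the mean of the 3 variants, and 0% of all genes tested passed in each of these comparisons. HBEGF with N737H and with the mean of the variants (-0.70 ± 0.30, unadjusted p = 0.0499) had an unadjusted p under 0.05 in this edgeR fit, and no other member did. That level was reached by 1.04%, 2.44% and 1.43% of all genes with R820W, N737H and I593T, and by 1.31% with the mean. For the mean, the HBEGF difference was -1.06 within A and -0.07 within B. Its fitted value without WT library A was 0.16. DESeq2 and limma voom also called 0 members. The fitted value was below 0 for 6, 8 and 8 of the 9 members with R820W, N737H and I593T, where 52%, 54.2% and 54.4% of all genes were. The median over the 6 ligands was -0.26, -0.58 and -0.28, and over the 3 receptors 0.16, -0.26 and -0.08, beside -0.01, -0.03 and -0.02 over all genes tested. Without WT library A, AREG, EREG, HBEGF, TGFA and EGFR were above 0, at 0.38 to 0.57 with R820W and 0.24 to 0.54 with I593T. With N737H, AREG and HBEGF stayed below 0 (-0.03 and -0.25), and EREG, TGFA and EGFR did not (0.14, 0.30 and 0.31). ERBB2 was then at -0.14, -0.55 and -0.38 with R820W, N737H and I593T. AREG and HBEGF were the members whose N737H libraries lay wholly below those of WT, as did 12.4% of all genes, and EPGN lay wholly above, as did 9.92%. AREG, EREG and HBEGF were lower with N737H both within A and within B, as were 22.6% of all genes. With R820W, ERBB3 lay wholly above WT (12.6% of all genes) and no member wholly below (12.8%), and with I593T no member lay wholly above (9.61%) or below (11%). The 3 comparisons share their WT libraries.

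**Figure D2:**
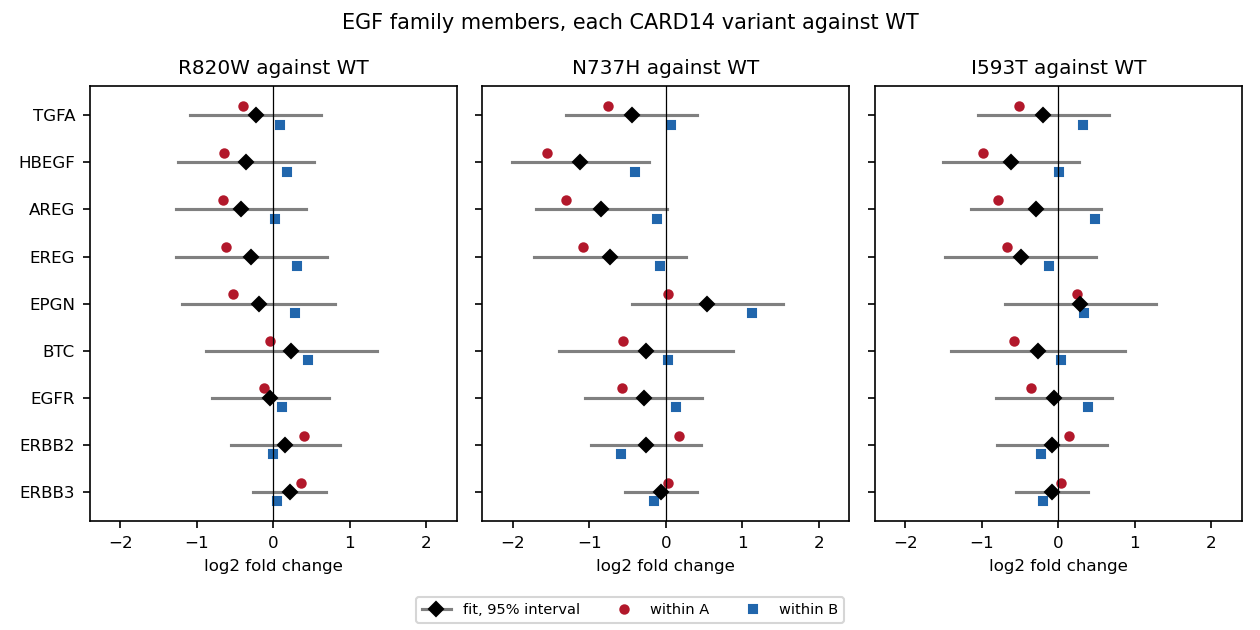
Log2 fold change (x axes) of each member (y axis) for R820W, N737H and I593T against WT, with the fitted value (diamond), its 95% interval (line) and the differences within A (circles) and within B (squares). HBEGF with N737H, at -1.12, has the only interval that does not reach 0, and within A the 4 abundant ligands and EGFR are below 0 in each panel.

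WT library A was the highest of the 8 for TGFA, HBEGF, AREG, EREG and EGFR, as it was for 19.9% of all genes. Within A, these 5 genes shared the order WT, R820W, I593T, N737H from high to low, an order that 7.82% of all genes had. Within B that order was held by ERBB2 alone among the members, and by 9.29% of all genes. Both were counted after the values were seen. The summed CPM of the 6 ligands was 410 and 277 with R820W (A and B), 277 and 236 with N737H, 363 and 297 with I593T, and 598 and 253 with WT. CARD14 RNA was lower in the A libraries of N737H and I593T than in the other 6, and its part in these differences was not tested. Of the ligand sum, HBEGF made up 24.9% and 25.8% with N737H, the lowest shares of the 8 libraries, against 33.6% and 31.7% with WT, while TGFA made up 47.6% and 44.6% with N737H, the highest, against 37.2% and 39.6% with WT.

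**Figure D3:**
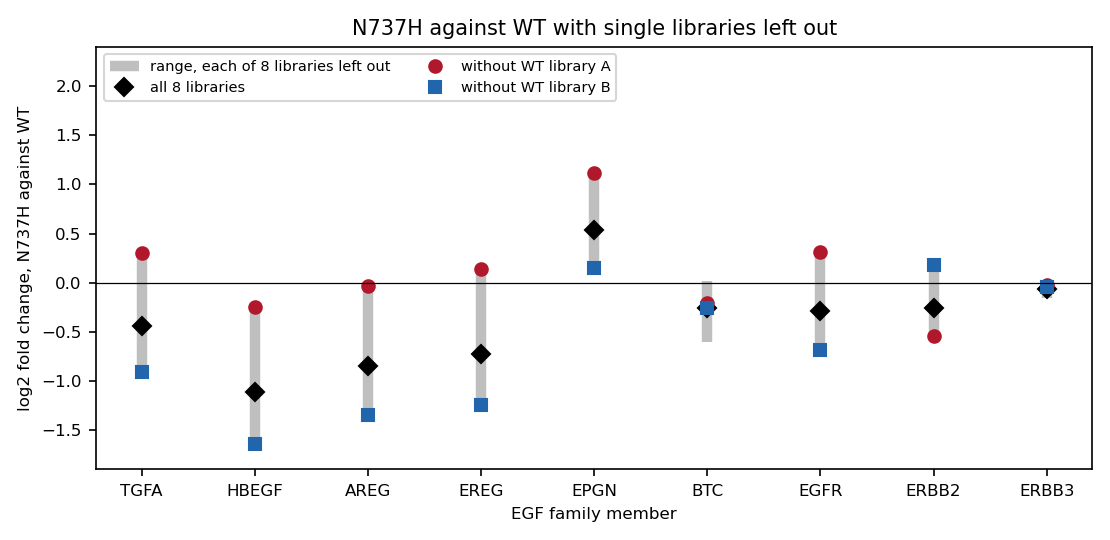
Log2 fold change of N737H against WT (y axis) for each member (x axis) with all 8 libraries (diamonds), without WT library A (circles) and without WT library B (squares), and the range over each of the 8 libraries left out (grey bars). HBEGF and AREG stay below 0 and EPGN above 0 throughout, whereas TGFA, EREG and EGFR cross 0 without WT library A.

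Between variants, again 0 members and 0% of all genes passed. R820W exceeded N737H in both libraries without overlap for AREG, EREG, HBEGF, ERBB2 and ERBB3, which is 5 of 9 members where 15.2% of all genes did so. The widest of these differences was HBEGF, at 0.76 ± 0.39 (95% interval -0.13 to 1.66, edgeR adjusted p = 1.00). EPGN was the 1 member lower with R820W than with N737H without overlap, at -0.73 ± 0.43, as were 13.1% of all genes. N737H lay wholly below I593T for AREG (-0.55 ± 0.37), HBEGF (-0.50 ± 0.39) and EGFR (-0.23 ± 0.33), as did 10.7% of all genes, and wholly above it for no member (9.67% of all genes). R820W lay wholly above I593T for ERBB3 (0.30 ± 0.21, beside 15% of all genes) and wholly below it for EPGN (-0.48 ± 0.43, beside 13.2%).

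Most of the abundant members were lower in the B libraries. In the B libraries, with construct means kept in the model, TGFA was at a mean of 109 CPM against 170 in the A libraries (log2 fold change -0.61 ± 0.15, n = 4 per letter). EREG was at 21.8 against 36.7 (-0.71 ± 0.18), EGFR at 51.6 against 74.3 (-0.52 ± 0.14), HBEGF at 78.3 against 125 (-0.58 ± 0.18) and AREG at 53.0 against 76.6 (-0.47 ± 0.21). None passed (edgeR adjusted p = 0.0739, 0.0761, 0.0941, 0.123 and 0.230 in that order), while 3.24% of all genes did. At an unadjusted p under 0.05 were 5 members and 23% of all genes. DESeq2, which called 9.46% of all genes, called 4 of them, TGFA (adjusted p = 0.00434), EREG (0.00612), EGFR (0.0212) and HBEGF (0.0287). ERBB2 was at 9.90 in B against 7.48 in A (0.40 ± 0.16, edgeR adjusted p = 0.203), ERBB3 at 11.2 against 12.4 and BTC at 1.34 against 0.971.

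The letter difference was widest in WT for 7 members, and narrowest there for BTC (0.02) and ERBB3 (0.04). For AREG, B minus A on the log2 CPM scale was -0.58 with R820W, -0.07 with N737H, 0.01 with I593T and -1.26 with WT, and for HBEGF it was -0.50, -0.18, -0.33 and -1.33. Without WT library A the fitted letter differences of TGFA and EREG were smaller, at -0.44 and -0.51, yet passed (edgeR adjusted p = 0.0327 and 0.0492), as did 6.86% of all genes in that fit. Among the 9 members the B libraries lay wholly below the A libraries for TGFA alone, as did 10% of all genes, and wholly above for BTC alone, as did 8%. Whether the letter difference depends on the construct could not be tested, since each construct had 1 library per letter.

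**Figure D4:**
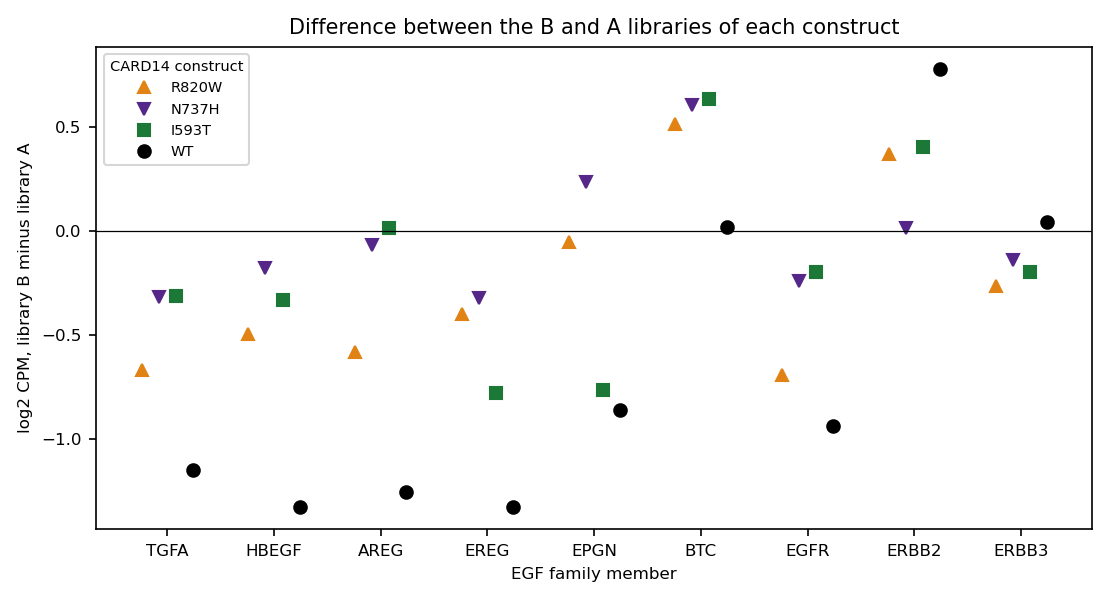
Log2 CPM in library B minus library A (y axis) for each member (x axis), with 1 point per CARD14 construct. For TGFA, HBEGF, AREG, EREG and EGFR the WT point is the lowest, between -1.33 and -0.94, and for ERBB2 it is the highest, at 0.78.

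Profiles over the 8 libraries were compared by the root mean square difference of centred log2 CPM, as a description with no test. TGFA and EGFR were the closest pair of members (0.086). HBEGF differed from EREG by 0.19, from AREG by 0.195 and from TGFA by 0.26, and AREG differed from EREG by 0.26. ERBB2 was nearer to BTC (0.27) than to EGFR (0.54). Among 9577 other genes with a mean of at least 5 CPM, those near to HBEGF, the ligand of widest range, included SGK1 (0.18) and SERPINB2 (0.20), and those nearest to EGFR were SLC41A1 (0.065), STARD13 (0.082) and GOLM1 (0.083).

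Of the other ligands and the fourth receptor, NRG1 and NRG4, neuregulins that bind ERBB3 or ERBB4, passed the filter. NRG1 was at 32.2, 31.4, 35.2 and 29.8 CPM with R820W, N737H, I593T and WT, and NRG4 at 3.85, 2.81, 1.93 and 3.50 (edgeR adjusted p = 1.00 for each variant against WT). EGF itself had 1 to 7 counts per library, ERBB4 0 to 8, and NRG2 and NRG3 had means of 0.0191 and 0.0373 CPM. Of 11 genes of ligand shedding, 0 passed against WT with any variant. By fitted value 4, 9 and 6 were lower with R820W, N737H and I593T, where 52%, 54.2% and 54.4% of all genes were. ADAM17, the main sheddase of EGFR ligands, had log2 fold changes of -0.23 ± 0.16, -0.20 ± 0.16 and -0.23 ± 0.16, and ADAM10 of -0.06 ± 0.16, -0.09 ± 0.16 and -0.25 ± 0.16. ADAM9, the list's member of highest CPM, was at -0.07 ± 0.21, -0.05 ± 0.21 and -0.18 ± 0.21. ADAM8 was at 0.63 ± 0.26 with I593T, with 0.07 within A and 1.09 within B. The intramembrane protease RHBDL2 was at -0.39 ± 0.28 with N737H. TIMP3, which inhibits ADAM17, was higher in the B libraries (7.01 against 2.45 CPM, edgeR adjusted p = 0.0151). It was the 1 gene of the 11 that passed between the letters, where 3.24% of all genes did.

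Of 19 adaptors and relay genes of the ERK and PI3K routes, 0 passed against WT. By fitted value 10, 13 and 10 were lower with R820W, N737H and I593T, where 52%, 54.2% and 54.4% of all genes were. Among those of smallest p were MAP2K1 with R820W (-0.34 ± 0.21) and HRAS with N737H (-0.36 ± 0.22). The adaptor GRB2 was at -0.01 ± 0.16, 0.01 ± 0.16 and 0.20 ± 0.16 with R820W, N737H and I593T. Between the letters PLCG1, a phospholipase that binds activated EGFR, was higher in B (10.7 against 3.98 CPM, edgeR adjusted p = 0.0151) and NRAS lower (118 against 159, 0.0483). Only PLCG1 and NRAS passed among the 19, beside 3.24% of all genes. By fitted value 9 of the 19 were higher in B and 10 lower. Of 15 receptor inhibitors and turnover genes 0 passed against WT, and 8, 12 and 10 were lower, beside 52%, 54.2% and 54.4% of all genes. PTPN1, a phosphatase of EGFR, was at -0.29 ± 0.17 with N737H, SOCS4 at -0.32 ± 0.27 with R820W and LRIG3 at 0.30 ± 0.20 with I593T. The deubiquitinase USP8 ran from -0.24 to -0.14 and NDFIP1, an adaptor of ubiquitin ligases, from -0.10 to -0.04 over the 3 variants.

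Among downstream genes, 0 of 11 ERK feedback genes passed against WT. By fitted value 6, 5 and 4 were lower with R820W, N737H and I593T, where 52%, 54.2% and 54.4% of all genes were. DUSP6, a phosphatase induced by ERK and acting on it, was at 265, 196, 219.5 and 244 CPM with R820W, N737H, I593T and WT. DUSP1 was at 1.18 ± 0.57 with I593T, with -0.14 within A and 2.17 within B. DUSP4, another phosphatase of the family, was at -0.04 ± 0.24, -0.37 ± 0.25 and 0.20 ± 0.24. SPRED3, an inhibitor of the RAS route with a mean of only 0.559 CPM, was at 1.40 ± 1.05 with R820W and 2.05 ± 1.04 with N737H. The N737H difference of SPRED3 was 0.07 within A and 3.51 within B. Of 18 ERK-responsive genes, 0 passed against WT. With N737H 15 had a fitted value below 0 (median -0.25), where 54.2% of all genes did (median -0.03). The number was 9 with R820W (52% of all genes) and 9 with I593T (54.4%), and the difference between variants, which share the WT libraries, was not tested. With N737H some of the 18 had opposite signs within A and within B, such as FOS (0.94 and -1.49) and FOSL1 (-1.05 and 1.02). Others were lower within both, such as PLAUR (-0.38 and -0.71) and EGR1 (-0.07 and -0.69). LIF, a cytokine of the IL-6 family, had the smallest p with N737H (-0.62 ± 0.25, unadjusted p = 0.0377, edgeR adjusted p = 1.00). FOS was at 0.71 ± 0.47 with R820W and JUNB at 1.13 ± 0.55 with I593T, each the smallest p of its comparison. The collagenase MMP1 ran from -0.47 to -0.14 and MYC from -0.11 to 0.07 over the 3 variants. Between the letters 9 of the 18 were higher in B and 9 lower by fitted value. The 3 that passed were all lower in B, beside the 3.24% of all genes that passed in either direction. They were IL8, the neutrophil chemokine (139 against 429.9 CPM, edgeR adjusted p = 0.00985), the protease MMP10 (18.8 against 45.4, 0.0484) and the transcription factor ETV5 (4.41 against 9.49, 0.0151).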

How the data were processed

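Whole-number counts of reads per gene symbol were deposited by the authors for the 8 libraries in a single unnormalised table. Per the labels' protocols, a mirVana kit gave the RNA and a NEBNext kit for low input gave the libraries. The submitters' processing notes list hg19, FastQC, MACS2 and DESeq2 without versions or roles. Aligner, counting program, annotation and strand setting: not given in the sources used here.

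Genes were kept by filterByExpr with the 4 groups, which left 14834. Counts were TMM-scaled and fitted with edgeR 4.0.16 (quasi-likelihood, two-sided tests) on all 8 libraries, with group means and 4 residual degrees of freedom. The letter comparison added the letter to the group means. Benjamini-Hochberg adjustment ran over all genes tested, and an adjusted p under 0.05 passed. An SE is the log2 fold change divided by the root of its F statistic. Differences within a letter use log2 CPM (prior count 2). Since each group has 2 libraries, p-values reflect only how these libraries vary, and a permutation test could not go below 0.333. Alternatives were RLE scaling, no filter, a minimum of 10 counts in 6 libraries, DESeq2 1.42.0, limma 3.58.1 voom, a replicate block, removal of CARD14, a fit to the pair of groups alone, and leaving out single libraries.

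The members and the lists of related genes were chosen with earlier results of these data known. All 9 members are named. Of each list, those named are past the threshold, have the smallest p against WT, or are among the 2 of highest mean CPM. A few genes that these rules name are not reported here. Promoter windows are RefSeq sequences of GRCh38.p14, a later build than hg19, matched by symbol.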

Additional observations from a re-analysis of the deposited data

Results flagged for a closer look

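Each member was checked within the 4 A and the 4 B libraries (18 groups of 4) for a library far from the other 3. Chance alone marks about 1 in 20 such groups. BTC in R820W library B stood above the other B libraries, with a gap of 0.927 of the whole range of log2 CPM. It was at 1.68 CPM there, against 1.21 to 1.24 in the other B libraries, on 31 counts. ERBB3 in R820W library A stood above the other A libraries, with a gap of 0.907 of the range, at 14.7 CPM against 11.4 to 11.7.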

How the results depend on the processing

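No member passed in a comparison of constructs under any alternative run. Of 216 log2 fold changes of members against WT with a single library left out, 29 changed sign, and 5 of 243 did so under the other settings. None of these values had passed. Over all genes, where 0 passed in each comparison of constructs, no filter called 2 genes with R820W, 2 with N737H, 8 with I593T and 2 for the mean of variants against WT, and 8, 10 and 11 for R820W with N737H, R820W with I593T and N737H with I593T. DESeq2 called 3 with I593T, 2 for R820W with N737H and 1 for N737H with I593T. With the replicate block DESeq2 called 1, 20, 3 and 3 for the comparisons with WT and 28, 5 and 1 between variants, and edgeR 1 for R820W with N737H and 0 elsewhere. HBEGF with N737H had an adjusted p of 0.131 in DESeq2 and 0.858 in edgeR with that block. There AREG, EREG and HBEGF with N737H had unadjusted p-values of 0.036, 0.0419 and 0.00596 in edgeR, where 670 of 14834 genes were under 0.05. With no filter 3 members were under 0.05 with N737H, as were 856 of 22949 genes. Same-lettered libraries had deviations correlated at 0.312 to 0.41, except N737H with WT (0.0242). The main fit of the constructs holds no letter term, so it counts the difference between the letters as spread within groups. The replicate block was run only as an alternative. With each library left out the counts ran from 0 to 3 for I593T, 0 to 1 for the mean of variants and 0 to 3 for R820W or N737H with I593T.

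Between the letters 480 genes passed. The count was 760 with no filter, 1287 with DESeq2 and 0 (without R820W library A) to 1069 (without WT library A) with each library left out. Without I593T library A or B it was 31 or 32, without R820W library B 10 and without WT library B 1010. Of the members, 2 passed with no filter (TGFA and EREG) beside 760 of 22949 genes, and 4 with DESeq2 beside 1287 of 13605. With each library left out 0 to 2 passed. The 2 came without WT library A, beside 1069 of 15592 genes, and without WT library B, beside 1010 of 15592. Summing AREG with AREGB was not run, since the table has no AREGB row. Counts of 16 to 85 limit BTC and EPGN.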
